A study of Mus musculus with 6 samples.

Results

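Murine embryonic stem cells (ESCs) that received an shRNA against SMC1 were compared with ESCs that received a control shRNA against GFP, by RNA-seq of 1 library each. SMC1, the product of Smc1a, is a core subunit of the cohesin ring. A gene entered the comparison when it had 50 or more counts in at least one of these libraries, which 12767 of 21104 genes with a RefSeq row did. The cells were V6.5, a line of C57BL/6-129 background, kept on irradiated embryonic fibroblasts and passaged once on gelatin without them before expression analysis. Lentiviral hairpins were delivered in medium with 8 µg/ml polybrene, and after 24 h the cells went through puromycin at 0.5 µg/ml for 48 h and at 1 µg/ml for another 48 h. The methods of the study state another puromycin concentration than the sample labels, which are followed here. All groups carried a hairpin and went through selection, so the GFP library was not from untreated cells. Each library was made from the RNA of 652000 cells, to which 1.42 µl of a dilution of ERCC synthetic RNAs had been added. The series holds 4 further libraries with condensin hairpins, 2 against CAPH2 and 2 against SMC2, and these serve here as a range over other hairpins and, by their mean, as an alternative control.

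Cohesin holds sister chromatids together from replication until anaphase, and in interphase it extrudes loops of DNA that are held at sites bound by CTCF. It is loaded by NIPBL, and at enhancers and promoters of active genes it is found together with the Mediator coactivator. ESCs rest on a network of transcription factors around Oct4, Sox2 and Nanog, and genes of that network carry dense cohesin and Mediator at their enhancers.

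The level of the targeted transcript was examined first. Smc1a (NM_019710) lies at chrX:148450971-148496515 in mm9. It had 3080 counts with the GFP hairpin and 1098 with the SMC1 hairpin, or 36.1 and 14.4 RPKM (reads scaled to exon length and to the mapped reads of the library). The condensin libraries held 46.9, 46.2, 45.6 and 41.7 RPKM, so the SMC1 library was the lowest of the 6 and the GFP library was the lowest of the other 5. The level left was 39.9% of GFP (95% exact binomial interval of the count ratio 37.2 to 42.8). Intervals here and below cover counting error only, because a single library stands for each hairpin and the spread between cultures is unknown.

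RPKM values are relative to the reads of each library. The ERCC RNAs, added in proportion to cell number, took 1.27% of the reads in the SMC1 library, 2.32% with GFP and 1.49% to 2.40% in the condensin libraries. All 32 ERCC RNAs with at least 100 counts were lower with the SMC1 hairpin than with GFP, with a median log2 difference of -0.84 and a difference of -0.86 for their sum. Scaling to the ERCC RNAs therefore raises every log2 change below by the same 0.86 and moves the median over all genes from 0.0071 to 0.87. A decrease smaller than that shift turns into an increase under this scaling, and no decrease past 2-fold does. Scaling by TMM or by DESeq2 size factors moved that median only to -0.020 and -0.0041. In RNA from whole cultures, fewer cells of a type and less RNA per cell cannot be told apart.

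The libraries carried the transcripts that define ESCs. The summed RPKM of Pou5f1, Sox2, Nanog, Zfp42, Dppa5a and Utf1 was 2922 with GFP, 1478 with SMC1 and 2476 to 2646 in the condensin libraries. A set of 10 fibroblast markers summed to 47.8 RPKM with GFP, 96.3 with SMC1 and 51.7 to 75.1 in the condensin libraries. Of these markers 7 passed the count minimum and 3 rose, while Dcn had 1 and 19 counts and Lum 1 and 5 in the GFP and SMC1 libraries. Primitive endoderm markers summed to 19.7 RPKM with GFP and 18 with SMC1, and trophectoderm markers to 8.49 and 11.96, with Tpbpa at 0 in all 6 libraries and Elf5 at 0 in 5 of them.

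Most transcripts differed little between the SMC1 and GFP libraries. The median absolute log2 change was 0.40, and 10437 genes (81.7%) stayed within 2-fold. A gene is said here to have risen or fallen only when its log2 change was at least 1 in size. By that measure 1358 genes rose (10.6% of those measured) and 972 fell (7.61%). At 4-fold or more, 325 genes rose and 257 fell, and at 8-fold or more 53 rose and 58 fell. The bound nearest to no change of the counting interval lay beyond 2-fold for 894 increases and 661 decreases. Of the increases, 451 belonged to genes that reached 50 counts only in the SMC1 library, and 321 of the decreases to genes that reached it only with GFP. Such genes had to differ to enter, so their number says nothing by itself. Among the leading genes and in the lists below, a member given with under 50 counts in either library is of this kind. By contrast 907 increases and 651 decreases remained among the 11724 genes with 50 counts in both. Against the other 5 libraries, 37.4% of all genes lay above their whole range in the SMC1 library and 35.9% below it, and 98.8% of the genes that rose and 97.8% of those that fell did so too. The GFP library is 1 of those 5 and these genes were chosen for their distance from it, so the last shares are largely fixed by that choice.

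**Figure D1:**
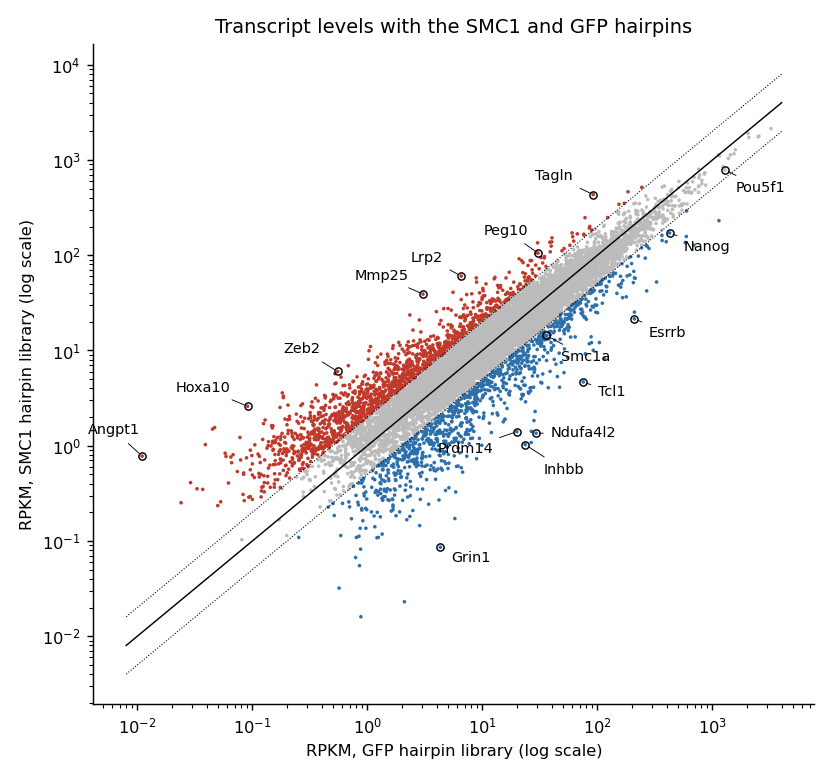
RPKM in the GFP library (x axis, log scale) against RPKM in the SMC1 library (y axis, log scale) for the 12767 genes measured, 1 point per gene, with red for increases and blue for decreases of 2-fold or more, the solid line at no change and dotted lines at 2-fold. Increases crowd at the low end of the GFP axis, while Esrrb, Nanog and other abundant ESC transcripts lie below the line.

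The leading increases, ranked by the bound of the counting interval nearest to no change, were a mixed group of developmental and cell surface genes. Lrp2, which encodes the endocytic receptor megalin, went from 2180 to 17977 counts, or from 6.55 to 60.4 RPKM, a log2 change of 3.21 (3.14 to 3.27). Its level in the condensin libraries was 8.24 to 11.04 RPKM, far under the SMC1 value. Mmp25, a membrane-anchored matrix metalloproteinase, went from 221 to 2534 counts (log2 change 3.68). Zeb2, a repressor of epithelial genes, went from 108 to 1055 counts (3.45), and Pcdh19, a non-clustered protocadherin, from 80 to 862 (3.59). The remaining leading genes were close to silent with GFP. Hoxa10 had 5 counts with GFP and 128 with SMC1, and the alarmin Il33 had 10 and 176. The leukotriene receptor gene Cysltr1 had 11 and 175 counts, and Clca4a 12 and 184. Angpt1, a ligand of the Tie2 receptor, had a single count with GFP and 61 with SMC1, for a log2 change of 6.09 with a wide interval of 3.56 to 11.4. Its RPKM was 0.011 with GFP, 0.778 with SMC1 and up to 0.326 in a condensin library. For Hoxa10 these values were 0.091, 2.60 and 0.602, so the GFP library stood low for both. Foxb1, Foxl2os and Skor1 had 3 counts each with GFP and 89, 89 and 71 with SMC1.

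Among the leading decreases were several genes known for their expression in the early embryo and germ cells. Inhbb, which encodes the activin beta B chain, went from 2157 to 84 counts, and 4.36% of its GFP level was left. Its RPKM was 23.6 with GFP, 1.03 with SMC1 and 17.0 to 22.9 with the condensin hairpins. Khdc3, a component of the oocyte subcortical complex, went from 964 to 35 counts (4.06% left), and Tcl1, a co-activator of Akt, from 2257 to 125 (6.20% left). Prdm14, which restrains differentiation and Fgf receptor signalling in naive ESCs, went from 1110 to 70 counts (7.06% left). Septin1 went from 3607 to 228 counts, the connexin gene Gjb5 from 1054 to 75 and Ly6g6e from 652 to 31. Grin1, a glutamate receptor subunit, had 281 counts with GFP and 5 with SMC1, while the homeobox gene Nkx6-3 had 101 and 1 (log2 change -6.50, interval -11.8 to -3.98). The GFP library stood high for Grin1, with 4.31 RPKM, beside 0.086 with SMC1 and as little as 1.245 in a condensin library. Lrrc34 (1112 to 65 counts) and Lrriq4 (301 to 15) overlap on opposite strands of chromosome 3, and since the library kit does not mark strand, their reads cannot be told apart where they overlap. Ndufa4l2, a hypoxia-responsive mitochondrial gene, had 29.3 RPKM with GFP and 1.35 with SMC1, but the condensin libraries lay between 4.11 and 14.7, so the GFP library itself stood high for it.

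**Figure D2:**
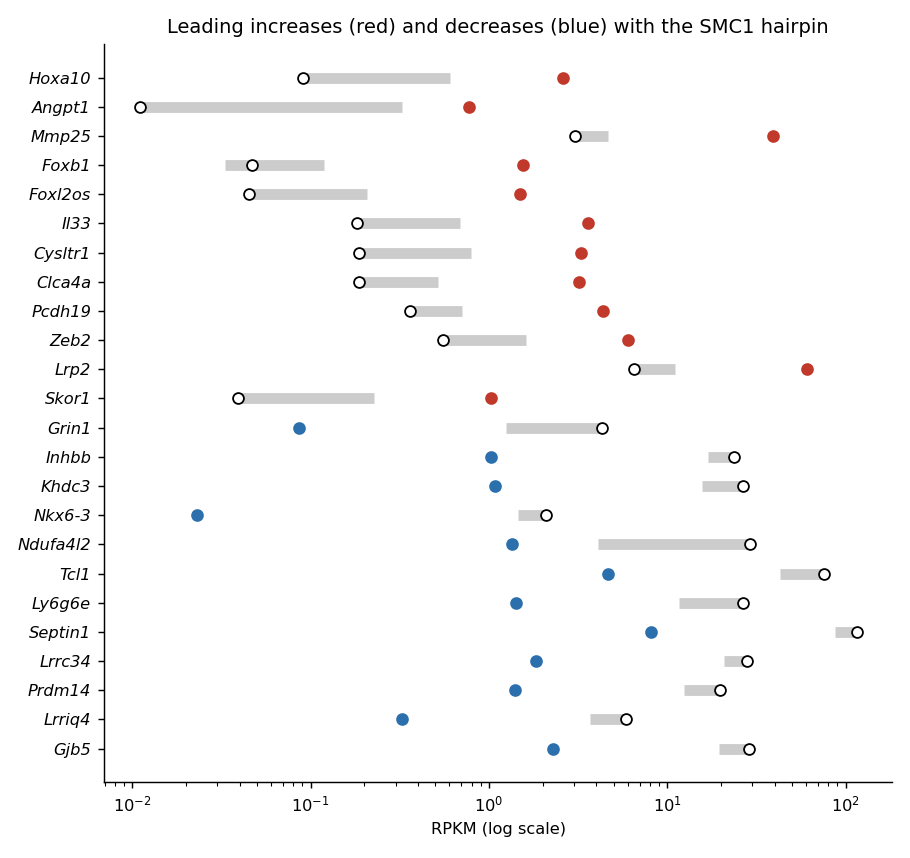
RPKM (log scale) of the 12 leading increases and the 12 leading decreases, with the SMC1 library as a filled point (red up, blue down), the GFP library as an open point and the range of all 5 libraries without the SMC1 hairpin as a grey bar. Every SMC1 point lies outside its bar, and the GFP point sits at the end of the bar away from the SMC1 point for 22 of the 24 genes, Foxb1 and Nkx6-3 being the exceptions.

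Transcripts of the complex itself were followed to see whether other subunits moved with Smc1a. Of 8 ring and release subunits, Smc1a alone fell. Its ring partners Smc3 and Rad21 had log2 changes of 0.05 and 0.11, and the release factor Wapl 0.16. The alternative ring-associated subunits Stag1 (1815 to 3290 counts, 1.02) and Stag2 (1640 to 3331 counts, 1.18) rose, though neither did against the mean of the condensin libraries. None of 9 loading, acetylation and protection genes passed 2-fold. The loader Nipbl came closest, with 9.14 RPKM with GFP and 17.5 with SMC1 (0.94), while Esco2, the acetyltransferase of S phase, had 51.4 and 30.4 RPKM (-0.76) and Ctcf 61.8 and 71.4 RPKM (0.21). The meiotic subunits Smc1b (253 to 37 counts, -2.61) and Stag3 (2026 to 640 counts, -1.50) fell, and Rec8 had -0.55. For all 3 the GFP library was the highest of the 5 without the SMC1 hairpin. Of these subunits Smc1b alone still fell against the condensin mean and with ERCC scaling. No condensin subunit passed 2-fold among 8, and of 33 Mediator subunits only Med12l rose (135 to 375 counts), in a stretch it shares with Igsf10 on the other strand.

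Pluripotency genes were read as a naive and a core list, whose medians differed though their members overlapped in size of change. Of 13 naive pluripotency factors, which hold ESCs in the state of the preimplantation epiblast, 11 fell and none rose, with a median log2 change of -3.05 beside 0.0071 over all genes. Esrrb went from 210 to 21.5 RPKM (10.2% left), with 158 to 182 RPKM in the condensin libraries. Klf4 went from 78.5 to 9.23 RPKM and Klf2 from 210 to 25.3, which left 11.8% and 12.1%. Tfcp2l1, Tfap2c, Nr0b1 and Tbx3 fell with log2 changes between -3.13 and -2.81, and Nr5a2 (-1.90) and Klf5 (-1.16) fell less. The exceptions were Stat3 (-0.09) and Gbx2, which had 28.0 RPKM with GFP and 53.2 with SMC1 (0.93). The SMC1 library lay below all other libraries for 12 of the 13, beside 35.9% of all genes. ERCC scaling kept 10 of the decreases past 2-fold and put Gbx2 past it upward, and all 11 held against the mean of the condensin libraries.

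The core list moved less by its median. Sox2 fell from 365 to 143 RPKM (39.1% left) and Nanog from 424 to 171 RPKM (40.5% left). Pou5f1, which encodes Oct4, had 1285 RPKM with GFP and 785 with SMC1, a log2 change of -0.71 that did not reach 2-fold. Of 18 core genes 7 fell and none rose. Dppa3 (445 to 56 counts), Fgf4 (11628 to 2132) and Zfp42 (7956 to 1785) fell most, and Dppa5a and Fbxo15 fell too. All 7 fell further than Klf5 of the naive list (-1.16). Sall4 and Tdgf1 had changes of -0.06 and -0.08, and Lin28a and Rif1 had 0.74 and 0.77. The median of the list was -0.56 and changed sign to 0.31 with ERCC scaling. Under that scaling 3 core genes fell and 5 rose, beside 311 and 5295 of all 12767 genes.

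Genes of the formative and primed epiblast, the states that follow the naive one at implantation, moved the other way. Of 15 such genes 7 rose and none fell, with a median of 0.85. Cdh2, which encodes N-cadherin, went from 4.36 to 20.6 RPKM (2.24), with no condensin library above 7.50 RPKM. Sox3 went from 6.84 to 27.6 RPKM (2.01), Sall2 from 10.5 to 37.7 (1.85) and Lef1 from 9.15 to 29.5 (1.69). Pou3f1 (22.5 to 65.7 RPKM, 1.55), Fgf5 (2.23 to 5.93 RPKM, 1.41) and Krt18 (61.0 to 156 RPKM, 1.36) also rose. The de novo methyltransferase gene Dnmt3b had 115 and 207 RPKM (0.85), whereas Otx2 (-0.01), Fgf8 (-0.11) and Foxd3 (-0.32), also used as markers of these states, differed by less than that. The same count of 7 was found against the condensin mean. With ERCC scaling 10 rose, beside 5295 of all 12767 genes.

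**Figure D3:**
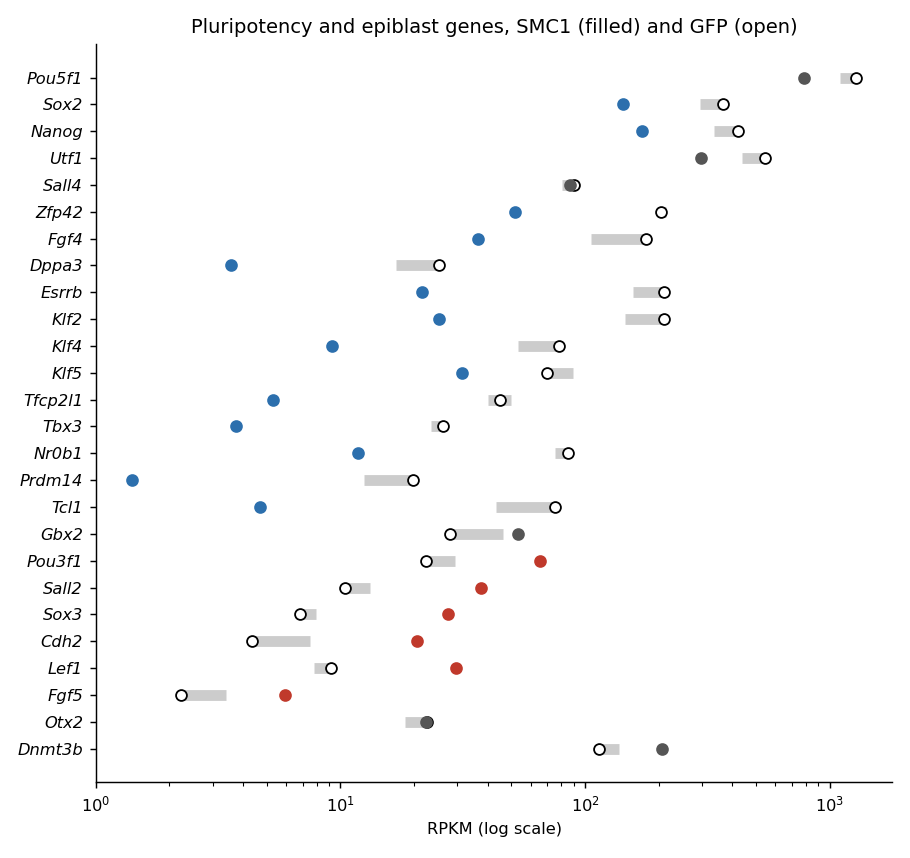
RPKM (log scale) of 26 pluripotency and epiblast genes, with the SMC1 library as a filled point (blue for decreases and red for increases past 2-fold, dark grey within it), the GFP library as an open point and the range of the 5 libraries without the SMC1 hairpin as a grey bar. The naive factors from Esrrb to Tcl1 lie to the left of their bars and the genes from Pou3f1 to Fgf5 to the right.

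The LIF pathway, which sustains naive ESCs through Stat3, was read from its receptors to its targets. The receptor genes Lifr and Il6st had log2 changes of -0.75 and -0.48, and Jak1 had 0.49. Jak2 rose from 209 to 449 counts (1.27). The feedback inhibitor Socs3 fell from 137 to 63.4 RPKM (-1.11), as did the targets Klf4 and Tbx3 above. With ERCC scaling only Klf4 and Tbx3 remained past 2-fold downward.

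Contractile genes were higher in the SMC1 library. These are targets of serum response factor (SRF) and its actin-sensing cofactors or of the Hippo effector YAP, and they encode smooth muscle actin, its regulators and matricellular proteins. Of 16 genes 12 rose and none fell, beside 10.6% and 7.61% of all genes. All 16 lay above every other library, beside 37.4% of all genes. The GFP library was the lowest of the 5 libraries without the SMC1 hairpin for 13 of the 16. Tagln (transgelin) went from 92.0 to 434 RPKM, with 109 to 172 in the condensin libraries. Cald1 (caldesmon) went from 30.2 to 135 RPKM (2.16), Cnn1 (calponin) from 10.2 to 42.4 (2.06) and the myosin light chain gene Myl9 from 512 to 1825 counts (2.00). The YAP targets Ankrd1 (71 to 314 counts, 2.31), Ccn2 (40.1 to 138 RPKM, 1.78) and Ccn1 (39.6 to 125 RPKM, 1.66) rose as well. Vcl (0.97), Flna (0.93), Srf itself (0.60) and Actn1 (0.07) did not reach 2-fold. The median was 1.497, and the count of 12 was the same against the condensin mean. With ERCC scaling 15 rose, beside 5295 of all 12767 genes. Fibroblasts also express many of these genes, and the fibroblast markers summed to 47.8 RPKM with GFP and 96.3 with SMC1, as given above. Their part in this result was not tested.

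The SRF site, called the CArG box, has CC and GG around a core of A and T bases. It was searched in the 250 bases before each RefSeq transcription start (GRCm38.p6), and a gene with several starts was counted once if any window held it. As a pattern it reads the same on both strands. Of 13 contractile genes with a window, Myl9, Srf and Vcl held a CArG box (23.1%), against 1.41% of genes measured here and 1.62% of all genes. Because the list was made of SRF and YAP targets, its share says nothing by itself about the SMC1 hairpin. Of all genes that rose, 1.96% held one, and of those that fell 1.63%. The windows are shown because they are the contractile promoters in which the search found the box, with the boxes in capitals, and a match is a description and not evidence of binding. They lie at chr2:156775263-156775352 (plus strand), chr17:46556175-46556284 (minus strand) and chr14:20929148-20929220 (plus strand).
Myl9: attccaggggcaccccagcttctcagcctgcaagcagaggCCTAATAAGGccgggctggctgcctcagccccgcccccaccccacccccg
Srf: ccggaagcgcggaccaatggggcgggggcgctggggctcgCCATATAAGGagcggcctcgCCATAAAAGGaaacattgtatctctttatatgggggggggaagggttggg
Vcl: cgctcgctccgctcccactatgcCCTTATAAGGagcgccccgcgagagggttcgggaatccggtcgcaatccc
The box of Myl9 begins 161 bases before the start and that of Vcl 227, while Srf holds a pair of boxes that begin 82 and 62 bases before it. Of these genes only Myl9 passed 2-fold.

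Genes of fibroblasts and the extracellular matrix rose beside the contractile genes. Of 15 measured genes of the fibroblast list 9 rose and none fell. Lox, the collagen cross-linking enzyme, went from 8.84 to 57.8 RPKM (2.71), with 14.2 to 28.2 in the condensin libraries, and Col5a2 from 5.36 to 26.5 (2.31). Thbs1, a matricellular protein gene and YAP target, went from 40.2 to 152 RPKM (1.92), with 52.5 to 78.4 in the condensin libraries. Twist1 (1.80), Prrx1 (1.84) and Fbln2 (1.74) rose, while Col1a1 (0.92), Pdgfrb (0.81) and Thy1 (0.25) did not reach 2-fold. The irradiated feeder layer consists of fibroblasts, the summed level of the feeder markers was 2-fold higher in the SMC1 library as given above, and the part of feeder carry-over in these increases was not tested. Against the mean of the condensin libraries 5 genes of the list rose.

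Adhesion genes changed in mixed ways. Of 18 measured integrin chains 7 rose and 2 fell, and 4 of the increases reached 50 counts only in the SMC1 library. Itgb1, the common beta chain, went from 85.8 to 201 RPKM (1.23) and Itgav from 7.72 to 15.8 (1.04). Itga1 (41 to 256 counts, 2.81) and Itgb8 (14 to 113 counts, 3.18) had the largest increases, both from under 50 counts with GFP, and Itga1 shares its locus with Pelo. Itgb7 fell from 568 to 52 counts (-3.29) and Itga9 from 532 to 178 (-1.42). Against the condensin mean 2 chains rose and 2 fell. In the basement membrane list of 13 genes the type IV collagen chains Col4a1 (12.2 to 34.9 RPKM) and Col4a2 (8.27 to 19.9) rose, the laminin chain gene Lama1 fell (13.1 to 6.47) and the remaining 10 stayed within 2-fold. Of 9 mesenchymal switch genes Zeb2, Cdh2 and Twist1 rose, whereas Vim (0.46), Fn1 (0.28) and Snai1 (0.86) did not pass. Of 12 epithelial junction genes, Cdh1, which encodes E-cadherin, had 134 and 116 RPKM (-0.20) and Epcam 121 and 119 RPKM (-0.02), Krt8 rose (1.19) and the small GTPase gene Rab25 fell (-1.93).

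**Figure D4:**
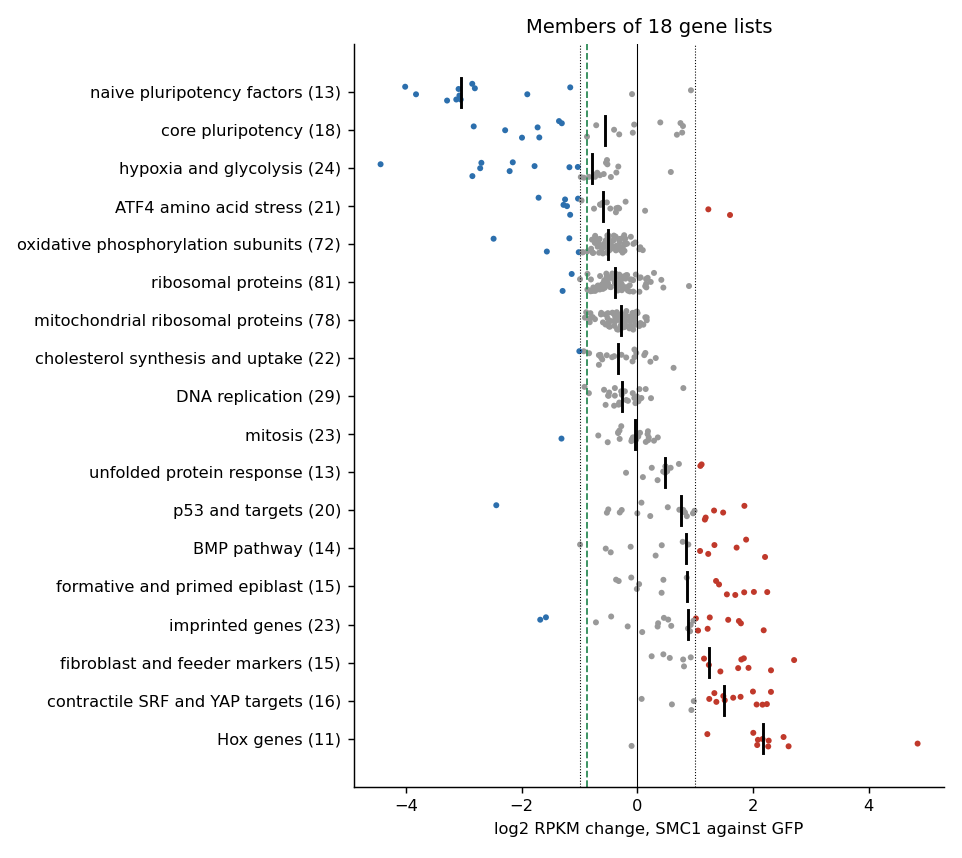
Log2 RPKM change, SMC1 against GFP, of the measured members of 18 gene lists (number of members in brackets), 1 point per gene, red past 2-fold up and blue past 2-fold down, with a black bar at each list's median, dotted lines at 2-fold and a green dashed line at the position that no change takes when libraries are scaled to the ERCC RNAs. The naive factors sit farthest left with a median of -3.05, and the contractile and Hox lists farthest right with medians of 1.497 and 2.16. Of the 11 Hox genes, 9 reached the count minimum only in the SMC1 library and had to differ to be measured. The 2 Hox genes that reached it in both libraries had a median of 1.08.

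Lineage genes were examined from the body axis to the extraembryonic lineages. Of 39 Hox genes, which pattern the body axis, 11 were measured and 10 of them rose, but 9 of those reached 50 counts only in the SMC1 library and had to differ to be measured. Hoxc13 had 102 and 85 counts (-0.10). Hoxb3 had 48 and 180 counts, Hoxb2 40 and 160 and Hoxa3 21 and 108. The levels stayed low, with 50.8 RPKM summed over the 39 genes in the SMC1 library against 13.6 with GFP.

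In the trophectoderm list 5 of 12 measured genes rose and 3 fell. Cdx2, a determinant of that lineage, had 15 counts with GFP, 107 with SMC1 and 31 to 48 in the condensin libraries. The keratins Krt8, Krt18 and Krt19 and Gata3 rose with it, while Ascl2 (199 to 36 counts), Tead4 (812 to 245) and Esx1 (139 to 43) fell and Eomes had -0.55. Among the 7 genes with 50 counts in both libraries 3 rose and 1 fell. Of the endoderm genes, Gata4 had 173 and 234 counts (0.60), and Gata6 and Sox17 stayed under the count minimum with 49 and 31 and with 8 and 18 counts. None of the 4 measured transcription factors of primitive endoderm passed 2-fold. Dab2, an endocytic adaptor that acts with Lrp2, rose from 197 to 479 counts (1.44), while the receptor gene Fgfr4 fell from 94 to 26 (-1.69). Among secreted proteins of visceral endoderm Apob (11 to 93 counts) and Spink1 (91 to 189) rose, and Apoe, with 593 RPKM in the GFP library and 403 to 467 in the condensin libraries, fell to 158. Apoa2 fell as well (355 to 151 counts, -1.07). Against the condensin mean 1 gene of this list rose and 1 fell.

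Mesendoderm and neural genes were measured at low counts in part. T (brachyury) rose from 305 to 646 counts (1.25) and Evx1 from 38 to 125 (1.88), while Mesp1 (66 to 3 counts) and Lhx1 (102 to 16) fell. Among the 4 mesendoderm genes with 50 counts in both libraries, T alone passed 2-fold. Its RPKM was 6.93 with GFP, 16.4 with SMC1 and up to 15.2 in a condensin library. Against the condensin mean 1 mesendoderm gene rose and 2 fell. Of 13 neural genes Zic1 (19 to 130 counts), Nrcam (70 to 462), Nes (1981 to 5051), Sox11 (2013 to 4556), Pax6 (340 to 742) and Map2 (227 to 480) rose, and Mapt (800 to 121) and Ncam1 (1323 to 545) fell. Against the condensin mean 3 neural genes rose and 1 fell.

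Signalling pathways were read from ligands to targets. In the Nodal and TGF-beta list the ligands Nodal (0.24) and Gdf3 (0.36) and the co-receptor gene Tdgf1 stayed within 2-fold and Inhbb fell, as given above. The feedback antagonist Lefty1 (171 to 351 RPKM, 1.04), the activin trap Fst (3.64 to 10.2 RPKM, 1.49) and Skil (1.07) were among the 4 genes of 12 that rose, and 2 rose against the condensin mean. Of 14 BMP pathway genes 6 rose and none fell. The ligands Bmp4 (-0.46) and Bmp7 (-0.55) stayed within 2-fold, the receptor gene Bmpr2 rose (2.98 to 10.96 RPKM), and so did the targets Id2 (24.9 to 58.3 RPKM), Id3 (26.8 to 87.8), Msx1 (50 to 206 counts) and Msx2 (93 to 209 counts) and the antagonist Nog (65 to 123 counts). Msx1 overlaps its antisense gene Msx1os, whose counts went from 20 to 142. Only 2 BMP pathway genes rose against the condensin mean and 1 fell.

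In the FGF pathway, which moves ESCs out of the naive state, the ligand Fgf4 fell from 178 to 36.6 RPKM and the target Etv4 from 52.6 to 21.6 (-1.28). Dusp6, a phosphatase induced by ERK, rose from 22.6 to 83.6 RPKM (1.89), with 31.5 to 38.9 in the condensin libraries. Fgfr2 (1.51), Fosl1 (1.34), Spred1 (1.13) and Dusp4 (1.08) also rose, while Etv5 (0.08) and Egr1 (0.22) differed little. Fosl1 had 39 and 88 counts, reached 3.22 RPKM in a condensin library against 2.68 with SMC1, and overlaps Ccdc85b on the other strand. Against the condensin mean 2 genes of the list rose and 2 fell. Wnt pathway genes included the increases Wnt3 (122 to 409 counts, 1.91), Lef1, Axin2 (388 to 887 counts, 1.36), Sp5 (1.11) and Lrp6 (1.04) and a decrease of the extracellular antagonist Sfrp1 (54.3 to 21.6 RPKM, -1.33), among 16 measured. Against the condensin mean 1 Wnt gene rose and 1 fell. The retinoic acid targets Cyp26a1 (290 to 45 counts) and Stra8 (144 to 24) fell, and the synthetic enzyme gene Rdh10 rose (224 to 441). Both decreases were of genes that reached 50 counts only with GFP, and none of the 7 genes of the list with 50 counts in both fell.

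Hypoxia and glycolysis genes included many that were lower with SMC1 than with GFP. Of 24 genes 9 fell and none rose. The aldolase gene Aldoc went from 32.8 to 4.55 RPKM (-2.85), Ndrg1 from 22.7 to 3.46 (-2.72), and Egln3, an oxygen-sensing prolyl hydroxylase and itself a target of hypoxia-inducible factor (HIF), from 48.5 to 7.49 (-2.70). Pfkp fell from 64.1 to 13.9 RPKM (-2.21), Ankrd37 from 23.0 to 5.18 (-2.15), Bnip3 from 17.1 to 5.00 (-1.78), Vegfa from 34.0 to 15.1 (-1.17) and Aldoa from 596 to 292 (-1.03). Abundant glycolytic transcripts moved less, among them Ldha (384 to 245 RPKM, -0.65), Slc2a1 (563 to 348, -0.69) and Tpi1 (266 to 160, -0.73). The GFP library was the highest of the 5 libraries without the SMC1 hairpin for 22 of the 24 genes. The SMC1 library was below all 5 for 14 of the 24, beside 35.9% of all genes. Bnip3, Ldha, Slc2a1 and Tpi1 were lower in at least 1 condensin library than with SMC1. Egln3 had 12.2 to 25.3 RPKM in the condensin libraries and Ndrg1 5.49 to 12.3, so the SMC1 library was the lowest of the 6 and the condensin libraries lay between it and GFP. Against the condensin mean 5 of the genes fell, and with ERCC scaling 6 fell and Car9 rose, with a median of 0.08 in place of -0.78.

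HIF binds a short core, searched here as ACGTG with its reverse complement CACGT in the same 250 base windows. Of 21 genes of the list with a window, 14 (66.7%) held the core, against 25.5% of genes measured here and 18.5% of all genes. The list was made of hypoxia and glycolysis genes, so its share says nothing by itself about the SMC1 hairpin. Among genes that fell the share was 26.2% and among genes that rose 18.7%. The core was present for 5 of the decreases, Aldoa, Ankrd37, Bnip3, Egln3 and Vegfa, and absent from the windows of Aldoc and Pfkp. It was present too for genes that did not pass 2-fold, such as Car9 and Ldha. The stretches around the core nearest to the start are shown for the decreases with a single start, with the core in capitals, and lie on the minus strand at chr8:45999851-45999896, chr7:138909569-138909654 and chr12:54204059-54204124 in GRCm38.p6.
Ankrd37: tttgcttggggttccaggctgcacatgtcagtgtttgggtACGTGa
Bnip3: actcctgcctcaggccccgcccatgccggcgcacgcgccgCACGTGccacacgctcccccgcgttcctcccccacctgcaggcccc
Egln3: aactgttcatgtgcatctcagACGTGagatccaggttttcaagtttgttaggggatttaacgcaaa
The core of Ankrd37 begins 6 bases before the start, that of Bnip3 108 and that of Egln3 229. In Bnip3 the core reads on both strands at once, as CACGTG.

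Other metabolic genes were lower by smaller amounts. Of 72 subunits of oxidative phosphorylation, 4 fell and none rose, with a median of -0.50, and 63 of them (set against 35.9% of all genes) lay below the range of the other libraries. The decreases were Cox7a1 (238 to 38 counts), Cox6b2 (1344 to 406), Ndufv3 (2422 to 958) and Ndufa6 (2343 to 1037). Mitochondrial ribosomal proteins had a median of -0.28 with 56 of 78 below the range, and none passed 2-fold. Cytosolic ribosomal proteins had a median of -0.39, and only Rpl39l and Rpl3l, copies with restricted expression, fell among 81. Ribosomal protein genes have many processed copies in the genome, so part of their reads may have been discarded. These medians all turned positive with ERCC scaling, at 0.37, 0.59 and 0.48. Against the condensin mean they were -0.29, -0.22 and -0.26, and 2 oxidative phosphorylation genes fell. The GFP library was the highest of the 5 libraries without the SMC1 hairpin for 54 of the 72, 38 of the 78 and 48 of the 81 genes. Of 21 genes of the ATF4 response to amino acid shortage 6 fell, among them Asns (281 to 118 RPKM, -1.25), Pycr1 (18.4 to 5.62, -1.71), Shmt2 (135 to 60.4, -1.16) and Gpt2 (45.9 to 19.7, -1.22), and Atf3 (112 to 234 counts) and Slc7a11 (24 to 65 counts) rose. Shmt2 shares its locus with Ndufa4l2 on the other strand. None of the ATF4 decreases held with ERCC scaling and against the condensin mean 1 gene fell.

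Sterol and lysosomal genes mostly stayed within 2-fold, and redox genes were mixed. Of 22 cholesterol genes only Mvd fell, at the threshold (58.9 to 29.4 RPKM, -1.003), and Sqle (0.12) and Cyp51 (0.14) stayed close to GFP. Of 14 NRF2 and glutathione genes Gstm1 (742 to 188 counts), Gstm3 (76 to 14) and Gpx2 (269 to 64) fell, while Hmox1 (0.16) and Gclm (0.10) differed little. Slc7a11, which is also on this list, rose as given above. The Gstm genes are near-identical copies whose reads may be lost or split. Of 24 lysosomal genes 2 fell, among them Glb1 (-1.11), and Ctsh rose (1.02).

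Stress responses showed partial increases. Of 20 genes of the p53 list 5 rose. Cdkn1a, the cell cycle inhibitor p21, went from 49.1 to 111 RPKM (1.18), with 50.8 to 82.2 in the condensin libraries. Plk2 (10.1 to 36.3 RPKM, 1.85), the BH3-only gene Pmaip1 (38.9 to 109, 1.48), Ccng1 (66.9 to 167, 1.32) and Perp (17.7 to 39.8, 1.17) also rose. For Plk2 and Perp the highest condensin library, at 39.98 and 50.6 RPKM, exceeded the SMC1 library. Only 6 of the 20 genes lay above the range of the other libraries, beside 37.4% of all genes. Mdm2 (0.82) and Trp53inp1 (0.96) did not pass, Gdf15 fell (188 to 31 counts) and Bbc3 and Bax had -0.50 and -0.27. Only 1 p53 gene rose against the condensin mean. In the unfolded protein response the endoplasmic reticulum chaperone Hspa5 (243 to 517 RPKM, 1.09) and its partner Dnajc3 (10.4 to 22.4, 1.11) rose among 13 genes, and neither rose against the condensin mean. Of the 13 genes, 12 lay above the range of the other libraries, beside 37.4% of all genes. Of 11 heat shock genes only the near-identical pair Hspa1a and Hspa1b rose (1.08 and 1.07). Interferon-stimulated genes were mostly close to the count minimum, with Cxcl10 (28 to 174 counts), Ifih1 (10 to 55), Oasl2 (151 to 564), Isg15 (34 to 82) and Ifit2 (43 to 84) up and Oas1a (311 to 38), Oasl1 (62 to 11) and Stat2 (1500 to 635) down. Of these, 4 increases and 2 decreases reached 50 counts in a single library, and among the 7 genes with 50 counts in both 1 rose and 1 fell.

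Cell cycle transcripts mostly stayed within 2-fold. Of 23 mitotic genes only Pttg1 fell (56.9 to 22.9 RPKM, -1.31), which encodes securin, the inhibitor of the protease that opens cohesin. The median of the list was -0.04, and Pttg1 did not fall against the condensin mean or with ERCC scaling. None of 29 replication genes passed 2-fold, but with a median of -0.27, 21 of them lay below the range of the other libraries, beside 35.9% of all genes. The lowest were E2f1 (47.4 to 25.2 RPKM, -0.91) and Cdt1 (144 to 80.8, -0.84). In the Myc network Myc had 526 and 928 counts (0.98) and Mycn 10023 and 6745 (-0.41), Mxd4 rose (80 to 226) and Mxi1 fell (1446 to 551). Lin28b, which blocks let-7 maturation, rose from 13.3 to 29.8 RPKM (1.16), and no gene of microRNA processing passed 2-fold. Against the condensin mean Lin28b did not rise and Mxi1 did not fall.

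Chromatin regulators and imprinted genes held several larger changes. The dioxygenase genes of DNA demethylation diverged, with Tet2 down from 16.4 to 5.82 RPKM (-1.50), Tet3 up from 2.72 to 9.12 (1.74) and Tet1 at 46.1 and 32.2 (-0.52). Of 16 Polycomb genes 3 rose, among them Bmi1 (206 to 607 counts, 1.72) and Cbx8 (47 to 88), and Ezh1 (1308 to 568) and Phf19 (430 to 179) fell, whereas the core subunits Ezh2 (-0.14), Suz12 (-0.34) and Rnf2 (0.03) stayed within 2-fold. Neither Ezh1 nor Phf19 fell against the condensin mean. Of 23 imprinted genes, which are expressed from a single parental copy, 8 rose and 2 fell, with a median of 0.87. Plagl1 (2.47 to 11.2 RPKM, 2.18), Peg10 (30.5 to 105, 1.79), Cdkn1c (26.0 to 87.8, 1.75), Sgce (3.09 to 9.17, 1.57), Ndn (14.1 to 33.6, 1.25) and Nnat (556 to 1152 counts, 1.21) led the increases. Cdkn1c, the cell cycle inhibitor p57, had 26.7 to 31.1 RPKM in the condensin libraries. H19 fell from 1238 to 370 counts (-1.58), whereas its neighbour Igf2 had 2073 and 1962 (0.08), and Slc22a18 fell from 86 to 24 counts. With ERCC scaling 17 of the list rose and none fell, beside 5295 increases and 311 decreases among all 12767 genes. Against the condensin mean 6 of the list rose and 2 fell.

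Clustered protocadherins, whose promoter choice is known to depend on CTCF and cohesin, were measured for 35 of 57 genes. All 14 measured genes of the alpha cluster rose, from 31 to 40 counts with GFP to 88 to 104 with SMC1. The alpha transcripts share their constant exons, so these rows hold largely the same reads and count as a single observation, and all reached 50 counts only in the SMC1 library. The 21 gamma genes likewise share exons and had changes of 0.09 to 0.30. Of 15 germline genes 3 rose and 3 fell, with Tdrd1 (78 to 289 counts) up and Hormad1 (234 to 69) down. Among genes of the 2-cell embryo the repeated families Zscan4 and Usp17l rose at low counts. Zscan4d had 9 counts with GFP and 78 with SMC1 and Usp17la 6 and 52. Reads that aligned to more than 2 places had been discarded, so the level of these families is uncertain, and their 5 increases all came from genes that reached 50 counts only in the SMC1 library.

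Transcript classes differed in their shares. Of 12440 coding genes 10.8% rose and 7.54% fell, and of 307 other noncoding RNAs 6.51% rose and 10.4% fell. None of 12 small nucleolar and Cajal body RNAs passed 2-fold. The RNA polymerase III products Rpph1 (63 to 22 counts) and Rmrp (106 to 45) had log2 changes of -1.36 and -1.07. Both reached 50 counts only with GFP, neither was the lowest of the 6 libraries, and against the condensin mean their changes were -0.39 and 0.01. Of 396 microRNA precursor rows 8 were measured, and Mir293 (62 to 22 counts) and Mir295 (86 to 36) fell. Both lie inside the noncoding gene D7Ertd143e, which had 1015 and 486 counts (-0.90), so the reads are those of a primary transcript and the mature microRNAs were not measured. With ERCC scaling neither fell, and against the condensin mean none of the 8 precursors did. Mir293 and Mir295 reached 50 counts only with GFP, and none of the 5 precursors with 50 counts in both libraries fell.

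The cluster on chromosome 7 gives rise to microRNAs that are typical of ESCs. Mature sequences from RefSeq (GRCm38.p6, plus strand) are shown for the 3′ arms of Mir293, Mir295 and their neighbours Mir291a and Mir294 to identify what the precursor encodes, with the seed, bases 2 to 8, in capitals. They lie at chr7:3218968-3218989, chr7:3220390-3220411, chr7:3220691-3220712 and chr7:3220815-3220837.
miR-291a-3p: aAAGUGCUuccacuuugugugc
miR-293-3p: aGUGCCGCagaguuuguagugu
miR-294-3p: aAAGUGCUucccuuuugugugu
miR-295-3p: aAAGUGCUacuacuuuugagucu
The seed AAGUGCU is shared by miR-291a-3p, miR-294-3p and miR-295-3p, and miR-293-3p has the seed GUGCCGC.

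The direction of change differed with the level and the length of genes. Of 909 genes under 1 RPKM with GFP 64.6% rose, but 480 of the 909 reached 50 counts only in the SMC1 library and had to differ. Of 124 genes at 300 RPKM or more none rose and 8.06% fell. By genomic span, 9.25% of coding genes under 5 kb rose and 12.3% fell, while of 521 genes over 200 kb 38.8% rose and 2.88% fell. Within genes of 1 to 3 RPKM the share that rose went from 17.9% under 20 kb to 50.5% over 200 kb. Within genes of 3 to 10 RPKM these shares were 7.27% and 13.1%, and at 10 to 30 RPKM 2.69% and 6.85%. At 30 RPKM or more 1.03% of 2034 genes under 20 kb and none of 19 genes over 200 kb rose. Base composition moved with span, and 89.47% of coding genes had a GC value. In the fifth of genes with the lowest GC content of the transcript 13.9% rose and 1.62% fell, compared with 8.76% and 13.1% in the fifth with the highest. Longer exon length went with increases as well, at 22.4% for exons summing to over 6000 bases and 1.92% for those under 1000. The part of GC content, exon length and library preparation in the relation to span was not tested.

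**Figure D5:**
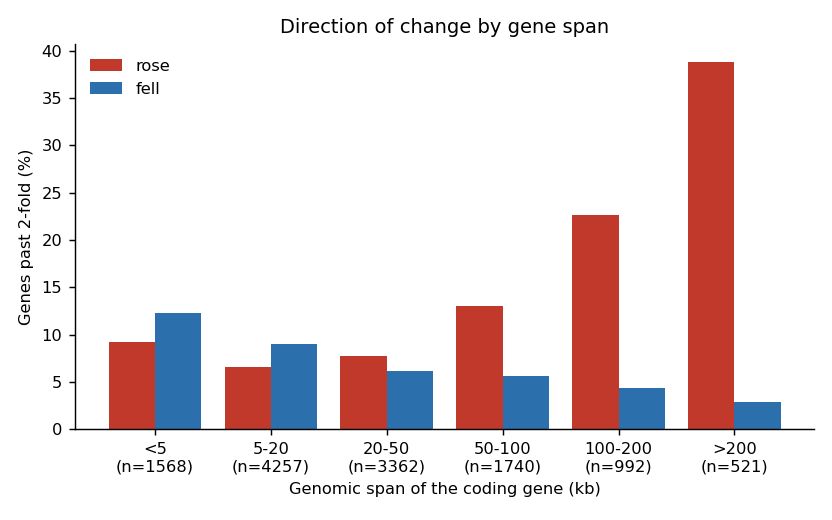
Percentage of coding genes that rose (red) or fell (blue) by 2-fold or more in the SMC1 library, by genomic span in kb, with the number of genes under each pair of bars. The share that rose goes from 9.25% under 5 kb to 38.8% over 200 kb, and the share that fell from 12.3% to 2.88%.

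Single long genes illustrate both directions. Sema3e, a secreted guidance cue that spans 231 kb, went from 5.55 to 40.8 RPKM (2.88), with no other library above 8.61. Hecw2 (85 to 677 counts), Hs6st2 (119 to 743), Dach1 (21 to 186) and Pcsk2 (15 to 148) rose as well. Prkg1, the longest of those named at 1197 kb, went from 5 to 58 counts. In the other direction Cobl, an actin nucleator of 228 kb, fell from 42.1 to 8.06 RPKM (-2.38), and Mitf (416 to 111 counts), Btbd11 (954 to 277) and Dner (102 to 22) fell.

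Position on the chromosomes was described last. On chromosome X, where Smc1a lies, 19.5% of 446 genes rose and 4.48% fell, the highest share of increases of any chromosome. Decreases outnumbered increases on chromosomes 7 (126 and 75), 17 (78 and 48), 11 (117 and 64) and 19 (38 and 29). Of the neighbours of genes that rose, counting only pairs that do not overlap, 20.6% rose, and of the neighbours of genes that fell 19.1% fell, beside 10.6% and 7.61% over all genes. Neighbours include members of gene families and copies that share reads.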

How the data were processed

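RNA-seq of V6.5 ESCs was analysed, with 1 library each for the GFP and SMC1 hairpins and 4 condensin libraries as a range. The authors aligned reads to mm9 with Bowtie, discarded reads aligning to more than 2 places, and deposited raw counts of exonic reads per RefSeq transcript. The deposited RPKM values rest on 21521988 reads with GFP and 19227950 with SMC1. Each file held 26073 RefSeq rows, of which 25349 were named by accession, 702 by overlap with annotated genes and 22 not at all, and 92 ERCC rows, which were left out. The row with the most counts over 6 libraries stood for a gene. Log2 changes were ratios of RPKM with no pseudocount. No test was made, because each hairpin had a single library. Intervals were exact binomial (95%). The steps were tested on simulated data.

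The members and gene lists were chosen with earlier results of these data known. Named genes were Smc1a, the 12 largest increases and decreases by interval bound, up to 6 members past 2-fold per list, and 12 defining genes. Others were chosen after their values were seen. Python 3.11.15, R 4.3.3, edgeR 4.0.16 (TMM) and DESeq2 1.42.0 (size factors) were used for alternatives, alongside other count minimums, a pseudocount, other row choices and the condensin libraries as control. Results for some genes of the lists are not reported here.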

Additional observations from a re-analysis of the deposited data

How the results depend on the processing

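Counts of increases and decreases moved by over 1.5 times under a few alternatives. The 1358 increases became 5295 with ERCC scaling, 790 with a minimum of 1 RPKM in the GFP library and 667 with a pseudocount of 1 RPKM. The 972 decreases became 311 with ERCC scaling and 617 against the mean of the 4 condensin libraries. Increases made up 58.3% of all changes in the reported comparison, 94.5% with ERCC scaling, 43.4% with the RPKM minimum and 50.6% with the pseudocount. The level of Smc1a left, 39.9%, became 72.7% with ERCC scaling and 31.9% against the condensin mean. Of 201 named genes past 2-fold, 157 stayed past it with ERCC scaling, which by construction turns no such change. Against the condensin mean 200 of the 201 kept their direction and 137 stayed past 2-fold, and Rmrp reversed to 0.0146. The 2-cell list reversed to a median of -2.83 with a minimum of 100 counts, with the RPKM minimum and with 50 counts in both libraries (added after seeing the data), because Dppa3 alone was left. TMM gave 1308 increases and 1020 decreases, DESeq2 size factors 1336 and 991, and the longest row per gene 1361 and 973. No paired analysis was possible because the GFP and SMC1 groups have 1 library each. Genes with few counts are imprecise, and the depth of a single library per hairpin gives counting error only.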
